A study of Mus musculus with 6 samples.

Results

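The mitochondrial genome of the mouse encodes 37 genes, and all of them were examined here in tumour-infiltrating CD8+ T cells. The members were every gene that GENCODE M21 places on chromosome M of GRCm38, the same assembly as mm10, out of the 55471 genes in the table. They comprise 13 messages, 2 ribosomal RNAs and 22 transfer RNAs. RNA sequencing had been done on OT-I T cells, which recognise an ovalbumin peptide, carried a Cas9 knock-in and had been transduced with a lentiviral guide and a CD90.1 marker. The 3 sgElovl1 libraries held cells with a guide against Elovl1, an elongase of very long-chain fatty acids. The 3 sgNT libraries held cells with a non-targeting guide. Cells of both groups had been transferred into mice with orthotopic KPC_OVA pancreatic tumours, all recipients had been given anti-PD-1, and CD90.1+ cells were sorted from the primary tumour on day 7. sgElovl1 replicates 1 and 2 are pools of RNA from 2 tumours, and each of the other 4 libraries came from 1 tumour. The guides act in a transduced population and not in a clone, so edited and unedited copies of Elovl1 can be mixed within a library.

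Mitochondrial DNA is transcribed from both strands into long precursors. The heavy strand is the template for most genes, and the light strand is the template for mt-Nd6 and a set of transfer RNAs. Transfer RNAs lie between most of the messages and ribosomal RNAs, and cutting them out of the precursor frees the RNAs on either side. The messages encode core subunits of respiratory complexes I, III and IV and of the ATP synthase (complex V), and the ribosomal RNAs mt-Rnr1 and mt-Rnr2 build the small and the large subunit of the mitochondrial ribosome. By annotation, 28 of the 37 genes were read from the heavy strand and 9 from the light strand. The light strand genes were mt-Nd6 and 8 transfer RNAs. Complex I accounted for 7 messages, complex III for 1, complex IV for 3 and complex V for 2.

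Total expected counts ranged from 21980273 to 26165380 per library, and between 15618 and 18688 genes had a count. Expected counts are the read pairs that RSEM assigned to a gene, and levels are given as CPM after TMM scaling unless stated. Elovl1 was lower in each sgElovl1 library than in each sgNT library, with 81.4, 76.6 and 95.3 CPM in the sgElovl1 libraries, against 283, 279 and 254 CPM in the sgNT libraries, each in the order of the replicate numbers. All 10 T cell markers, among them Cd3e and Cd8a, were detected in every library. Their summed level was 12605, 12467 and 13493 CPM without TMM factors in sgElovl1 libraries and 15487, 15133 and 15022 CPM in sgNT libraries. The sum was thus lower in each sgElovl1 library. On this scale 4 of the 10 were lower without overlap and 1, Cd3e, was higher. Over all genes tested, with TMM factors, 17.7% were lower and 19.4% higher without overlap. The third library of both groups carried most tumour epithelium marker RNA (356 CPM in sgElovl1 replicate 3 and 1064 CPM in sgNT replicate 3, against at most 79.5 CPM in any other library).

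Part of the mitochondrial genome also exists as a copy in the nuclear genome, and this affected how reads were counted. A search of all annotated transcripts found 11 nuclear pseudogenes that matched a mitochondrial gene, of which 7 had a count. A run of them lies on the minus strand of chromosome 1 in the same order as the mitochondrial genes. The pseudogene Gm28437 (chr1:24613189-24613971) matched mt-Co3 over 783 of its 784 bases without a difference. The first 90 bases of both, the start codon in capitals, are shown because a read that lies within them cannot be placed by its sequence.
mt-Co3 (chrM:8607-8696, plus strand): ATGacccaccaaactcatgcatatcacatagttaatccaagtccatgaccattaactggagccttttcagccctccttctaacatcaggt
Gm28437 (chr1:24613882-24613971, minus strand): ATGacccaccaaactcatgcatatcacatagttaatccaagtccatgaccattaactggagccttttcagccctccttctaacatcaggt
Gm28438 (chr1:24612775-24613119) differed from mt-Nd3 at 1 of 345 bases, at position 3 counted from the first base of the gene. Capitals mark that letter.
mt-Nd3 (chrM:9459-9519, plus strand): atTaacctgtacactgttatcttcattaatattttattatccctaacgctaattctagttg
Gm28438 (chr1:24613059-24613119, minus strand): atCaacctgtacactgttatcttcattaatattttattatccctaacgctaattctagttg
Gm29216 (chr1:24615706-24616197) matched the last 483 bases of mt-Co1 with 1 difference, at position 1066 of the gene, again in capitals.
mt-Co1 (chrM:6390-6450, plus strand): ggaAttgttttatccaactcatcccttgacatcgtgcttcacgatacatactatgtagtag
Gm29216 (chr1:24616128-24616188, minus strand): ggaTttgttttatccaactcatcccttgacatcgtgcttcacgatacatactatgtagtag

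Other members of the run were Gm28661 (681 bases of mt-Co2), Gm10925 (678 bases of mt-Atp6) and Gm10222 (294 bases of mt-Nd4l), all without a difference. Gm28439 matched 876 bases of mt-Nd4 and was listed at 0 in every library. The splitting of reads can be seen in the decimals. Within 0.02 of a whole number, the expected counts of the 9 messages and ribosomal RNAs without a counted copy were whole in 54 of 54 values. For the 6 messages with a counted copy they were whole in 7 of 36 values, and the sum of gene and copy was whole in 36 of 36. Levels of mt-Co1, mt-Co2, mt-Atp6, mt-Co3, mt-Nd3 and mt-Nd4l are therefore uncertain as deposited. From which locus a shared read came cannot be told apart where the sequences are identical, and results are given both as deposited and with the counts of the copy added to the gene. With the copies added, 15 messages and ribosomal RNAs passed the filter and 11 were called higher, where 8.61% of all genes tested were.

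Some members also overlap each other. The end of mt-Atp8 runs into the start of mt-Atp6 over 43 bases, and the end of mt-Nd4l into mt-Nd4 over 7 bases, here in capitals.
mt-Atp8 (chrM:7897-7969, plus strand): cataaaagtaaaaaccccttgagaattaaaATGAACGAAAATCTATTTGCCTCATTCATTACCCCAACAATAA
mt-Nd4l (chrM:10137-10173, plus strand): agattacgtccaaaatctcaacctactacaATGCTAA
Each pair is translated from 1 shared message, so a read in the overlap belongs to both genes. The annotated mt-Co3, mt-Nd4 and mt-Cytb ended 1 base past their last full codon, and in mammals the poly(A) tail completes such stop codons. The sequences are those of GENCODE M21.

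As a class, mitochondrial RNA took a larger share of the sgElovl1 libraries. The 37 genes held 1.62, 1.39 and 1.04% of all counts in sgElovl1 libraries and 0.493, 0.233 and 0.238% in sgNT libraries. The groups did not overlap, and the ratio of the means was 4.2. With the nuclear copies added, the shares were 2.39, 2.03 and 1.41% in sgElovl1 libraries and 0.674, 0.307 and 0.317% in sgNT libraries. In bulk RNA, more cells with much mitochondrial RNA and more such RNA per cell cannot be told apart.

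Messages made up nearly all of this in the libraries. The paper describes pre-amplified RNA and a strand-specific mRNA sequencing service, so shares of messages and ribosomal RNAs need not be those in the cells. The 13 messages held 1.503, 1.28 and 0.947% of counts in sgElovl1 libraries, against 0.441, 0.216 and 0.221% in sgNT libraries, and the lowest sgElovl1 library was 2.15 times the highest sgNT library. The 2 ribosomal RNAs held 0.119, 0.111 and 0.0900% in sgElovl1 libraries, against 0.0516, 0.0168 and 0.0171% in sgNT libraries. The balance between the classes did not separate the groups. Messages were 92.7, 92.0 and 91.3% of the mitochondrial total in sgElovl1 libraries and 89.5, 92.8 and 92.9% in sgNT libraries, so the sgElovl1 values lay inside the sgNT range.

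**Figure D1:**
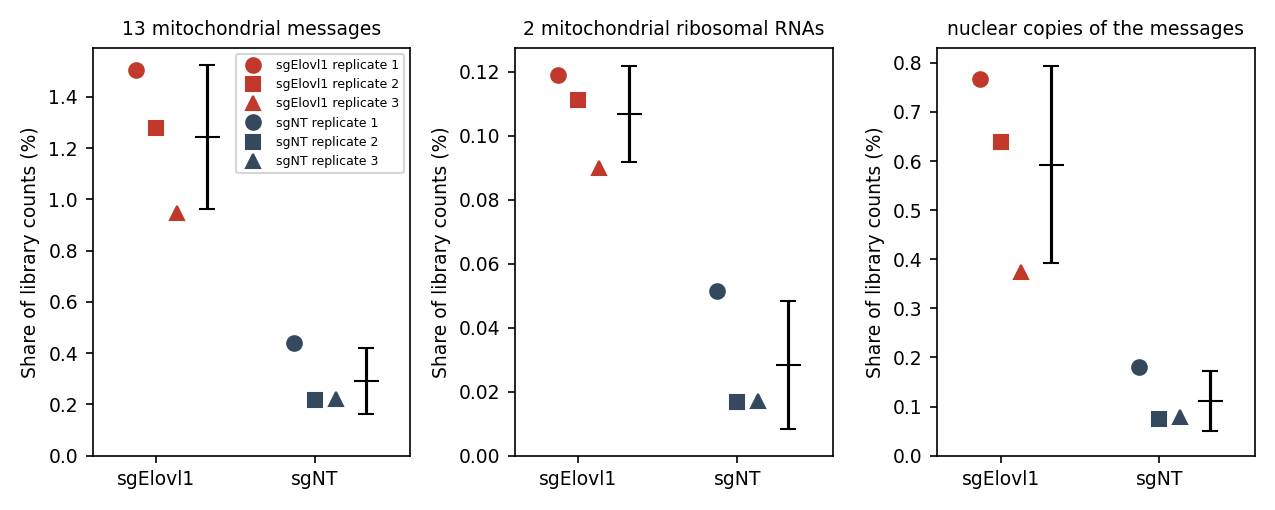
Share of each library's expected counts (%) held by the 13 mitochondrial messages, the 2 ribosomal RNAs and the nuclear copies of the messages, with 1 point per library and the mean ± SD (n = 3) beside each group. In all 3 panels each sgElovl1 library lies above each sgNT library, and sgNT replicate 1 is the highest of its group (0.441% for the messages).

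Transfer RNAs gave no information. All 22 were listed at 0 in every library, and their effective length, the number of positions at which a fragment of the library could start, was listed at 0 throughout. They measure 59 to 75 bases, and the shortest, mt-Ts2, which carries serine, is printed to show the size.
mt-Ts2 (chrM:11613-11671, plus strand): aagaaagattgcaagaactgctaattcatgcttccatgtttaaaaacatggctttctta
An effective length of 0 was shared by 6563 genes of the table, of which 3 had a count in any library. A 0 for these genes therefore says nothing about their level in the cells, and the light strand could be followed through mt-Nd6 alone.

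Of the 15 messages and ribosomal RNAs, 14 passed the filter on low counts, and 11 of these were called higher in sgElovl1 cells at an adjusted p under 0.05 by edgeR's quasi-likelihood test. None was lower. Over all 12546 genes tested, 8.64% were called higher. All 14 had each sgElovl1 library above each sgNT library, as did 19.4% of all genes tested. The median log2 fold change of the 14 was 1.84, with a range of 1.39 to 3.23, beside a median of -0.00 over all genes tested. Among the 2137 nuclear genes that averaged at least 100 CPM, the nuclear copies of mitochondrial genes left out, 84 were called higher and 238 lower, the median was -0.17, and the highest value was 2.17.

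The number of members called changed when libraries were left out, and so did the share of all genes called higher. Without sgElovl1 replicate 1 or sgElovl1 replicate 2, 3 members were called each time, beside 2.95% and 2.15% of all genes tested. Without sgNT replicate 2 the number was 5 (2.55% of all genes), without sgNT replicate 3 it was 6 (7.08%), and without sgElovl1 replicate 3 it was 9 (11%). Without the third library of both groups, 3 of 14 were called, mt-Atp6, mt-Atp8 and mt-Nd3, with a median log2 fold change of 1.72. In that fit 15.4% of all genes tested were called higher. The labels number the libraries within each group but do not pair them. With the number as a block, fitted because same-numbered libraries deviated together in these data, 14 of 14 were called, beside 8.92% of all genes.

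**Figure D2:**
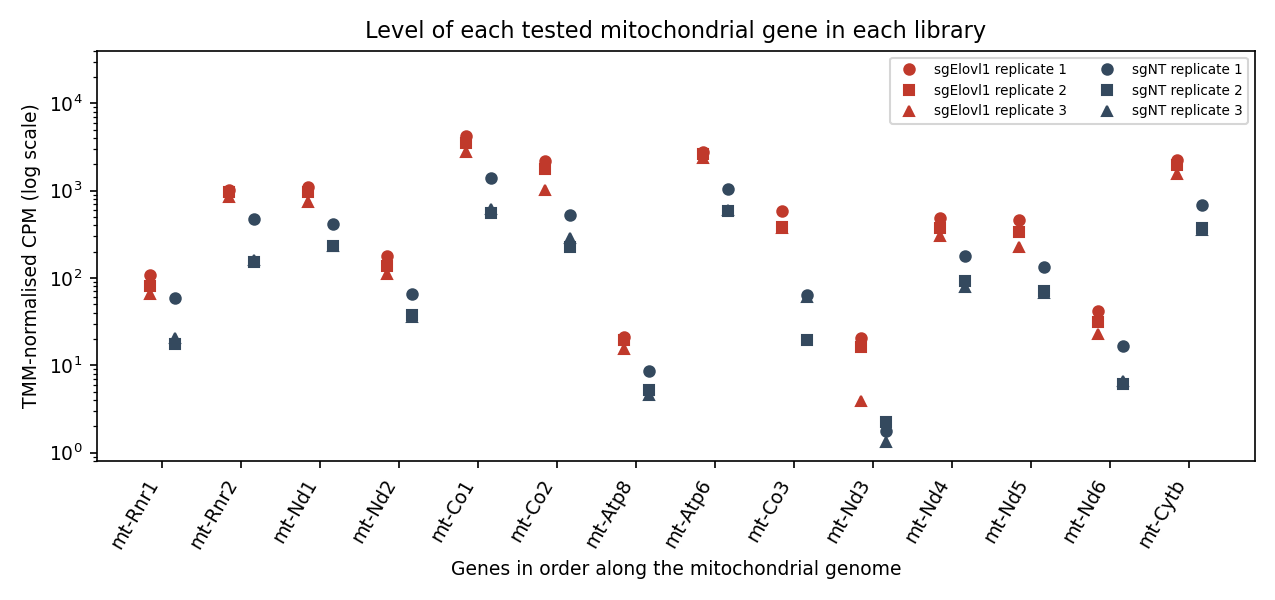
TMM-normalised CPM on a log scale for the 14 tested genes in their order along the mitochondrial genome, with 1 point per library. The sgElovl1 libraries lie above the sgNT libraries for each gene, from mt-Nd3, where the lowest sgElovl1 library had 3.90 CPM and the highest sgNT library 2.23 CPM, to mt-Co1 at 2788 and 1410 CPM.

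The messages of complex IV, cytochrome c oxidase, encode its 3 largest subunits, which form the core of the enzyme. mt-Co1, the subunit that holds the site of oxygen reduction, had 4169, 3499 and 2788 CPM in sgElovl1 libraries and 1410, 553 and 615 CPM in sgNT libraries as deposited. Its log2 fold change was 2.02 (SE 0.41, adjusted p = 0.0322 by edgeR's quasi-likelihood test). The call was kept in 1 of the 6 fits that left out a library. Each sgElovl1 library was at least 1.98 times the highest sgNT library. With the counts of Gm29216 added, the log2 fold change was 1.95 (adjusted p = 0.0274).

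mt-Co2, which receives electrons from cytochrome c, had 2194, 1770 and 1005 CPM in sgElovl1 libraries and 519, 224 and 286 CPM in sgNT libraries. The groups did not overlap, and sgElovl1 replicate 3 was 0.507 times the mean of the other sgElovl1 libraries. The log2 fold change was 2.27 (SE 0.46, adjusted p = 0.0360) as deposited and 2.36 (adjusted p = 0.0332) with its copies added, both from edgeR's quasi-likelihood test. mt-Co3, the remaining core subunit, showed the largest deposited change of all members. Its level was 584, 386 and 375 CPM in sgElovl1 libraries and 63.1, 19.5 and 60.4 CPM in sgNT libraries, a log2 fold change of 3.23 (SE 0.55, adjusted p = 0.0305 by edgeR's quasi-likelihood test). As deposited, the calls of mt-Co2 and mt-Co3 were each kept in 2 of the 6 fits that left out a library.

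The deposited value of mt-Co3 covered a small part of the reads of gene and copy. Gm28437 had been given 90.6, 92.3 and 87.2% of the pair's counts in sgElovl1 libraries and 95.3, 96.4 and 90.4% in sgNT libraries, with overlap between the groups. Together, gene and copy had 6204, 5039 and 2934 CPM in sgElovl1 libraries and 1357, 541 and 630 CPM in sgNT libraries. On this sum the log2 fold change was 2.49 (SE 0.49, adjusted p = 0.0335 by edgeR's quasi-likelihood test). The pseudogene on its own changed by 2.43 (adjusted p = 0.0408) by edgeR's quasi-likelihood test.

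**Figure D3:**
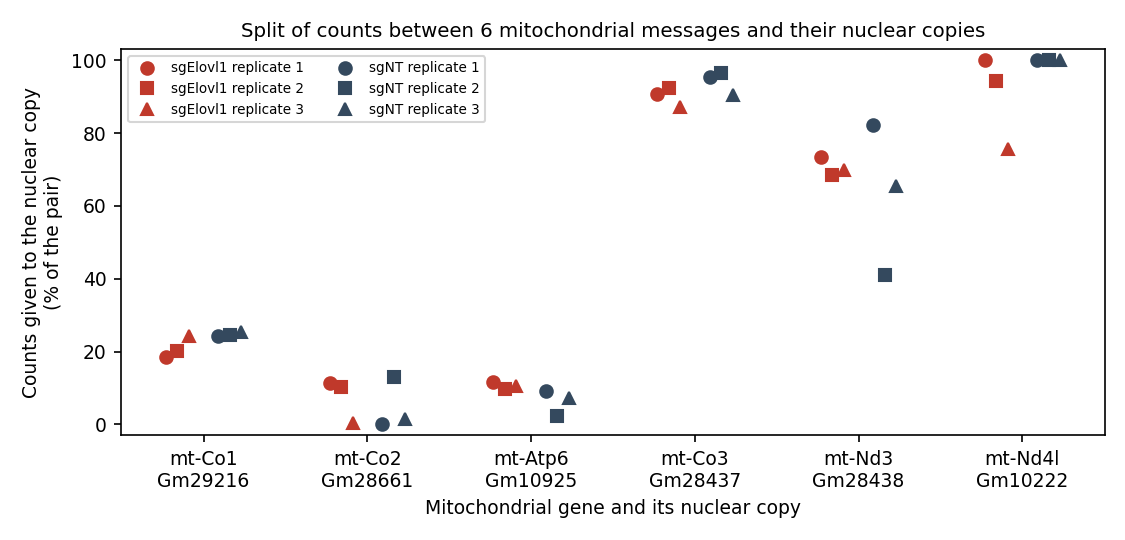
Share of the summed counts of gene and nuclear copy (%) that the deposited table gave to the copy, for the 6 messages with a counted copy, with 1 point per library. The copy of mt-Co3 took between 87.2 and 96.4% and that of mt-Co1 between 18.4 and 25.3%, while the copy of mt-Co2 varied from 0.0104 to 12.96% between libraries.

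The ATP synthase has 2 messages, mt-Atp6 for a subunit of the proton channel and mt-Atp8 for a small subunit of the membrane part. mt-Atp6 had 2806, 2639 and 2370 CPM in sgElovl1 libraries and 1032, 583 and 593 CPM in sgNT libraries. It was the steadiest member among sgElovl1 libraries, with an SD of 8.44% of the mean, and each of them was at least 2.30 times the highest sgNT library. Its log2 fold change was 1.82 (SE 0.22, adjusted p = 0.00161 by edgeR's quasi-likelihood test) as deposited and 1.88 (adjusted p = 0.00254) with Gm10925 added.

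mt-Atp8 had 21.2, 19.6 and 15.4 CPM in sgElovl1 libraries and 8.51, 5.14 and 4.55 CPM in sgNT libraries, without overlap. It changed by 1.63 (SE 0.24, adjusted p = 0.00315 by edgeR's quasi-likelihood test). The level difference between the 2 genes of this shared message cannot be read as abundance, since the effective length of mt-Atp8 was listed at 2.93 to 3.77 bases. mt-Atp6 and mt-Atp8 were the only members called as deposited in each of the 6 fits that left out 1 library, with adjusted p of at most 0.0203 for mt-Atp6 and 0.0387 for mt-Atp8. With the copies added, mt-Nd4l was called in each of the 6 as well.

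mt-Cytb, cytochrome b of complex III, had 2219, 1968 and 1557 CPM in sgElovl1 libraries and 692, 378 and 356 CPM in sgNT libraries. It has no counted nuclear copy, and each sgElovl1 library was at least 2.25 times the highest sgNT library. The log2 fold change was 2.01 (SE 0.28, adjusted p = 0.00517 by edgeR's quasi-likelihood test), and the call was lost in 1 of the 6 fits that left out a library (adjusted p = 0.0512 without sgElovl1 replicate 1).

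The 7 messages of complex I, NADH dehydrogenase, encode subunits of its membrane arm. mt-Nd1, next to the ubiquinone site, had 1102, 959 and 733 CPM in sgElovl1 libraries and 413, 229 and 235 CPM in sgNT libraries, a log2 fold change of 1.67 (SE 0.26, adjusted p = 0.00859 by edgeR's quasi-likelihood test). mt-Nd2, a subunit related to ion antiporters as are mt-Nd4 and mt-Nd5, had 178, 136 and 112 CPM in sgElovl1 libraries and 65.2, 37.3 and 35.5 CPM in sgNT libraries (1.63, adjusted p = 0.0162). In both genes the lowest sgElovl1 library was above the highest sgNT library by at least 1.71 times.

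mt-Nd4 had 480, 370 and 302 CPM in sgElovl1 libraries and 176, 91.8 and 79.5 CPM in sgNT libraries, with a log2 fold change of 1.73 (adjusted p = 0.0369 by edgeR's quasi-likelihood test). mt-Nd5 had 461, 339 and 227 CPM in sgElovl1 libraries and 132, 71.1 and 67.9 CPM in sgNT libraries, with a log2 fold change of 1.92 (adjusted p = 0.0373). Neither had overlap between groups, and both calls were kept in 2 of the 6 fits that left out a library.

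The 2 shortest complex I messages were the least certain. mt-Nd3 had 20.6, 16.1 and 3.90 CPM in sgElovl1 libraries and 1.78, 2.23 and 1.32 CPM in sgNT libraries, a log2 fold change of 2.93 (SE 0.66, adjusted p = 0.0429 by edgeR's quasi-likelihood test). sgElovl1 replicate 3 was 0.212 times the mean of the other sgElovl1 libraries. With Gm28438 added, the levels were 77.7, 51.3 and 12.9 CPM in sgElovl1 libraries and 10.001, 3.78 and 3.80 CPM in sgNT libraries, and the call was lost (3.02, SE 0.89, adjusted p = 0.1004). With the replicate block the gene was called in both forms (adjusted p = 0.00364 as deposited and 0.00579 with the copy added). That block is a pairing the labels do not give, fitted because of a pattern in these same data, so it does not settle the call.

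mt-Nd4l had 0, 13.28 and 25.41 expected counts in sgElovl1 libraries and 0 in each sgNT library, too few to be tested. The reads had gone almost wholly to Gm10222, which held 100, 94.2 and 75.6% of the pair in sgElovl1 libraries and 100% in each sgNT library. The pair together had 302, 229 and 104 counts in sgElovl1 libraries and 54, 31 and 36 counts in sgNT libraries, and it was called higher with a log2 fold change of 2.31 (SE 0.36, adjusted p = 0.00399 by edgeR's quasi-likelihood test).

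mt-Nd6, the message of the light strand and also a complex I subunit, had 41.8, 31.0 and 22.8 CPM in sgElovl1 libraries and 16.8, 6.15 and 6.66 CPM in sgNT libraries. Groups did not overlap, but the lowest sgElovl1 library was 1.36 times the highest sgNT library, and the log2 fold change of 1.69 did not pass the test (SE 0.49, adjusted p = 0.0808 by edgeR's quasi-likelihood test). It passed with the replicate block (1.79, adjusted p = 0.00203). The labels do not give that pairing, and the block was fitted because of a pattern in these same data, so the call is not settled. The heavy strand is transcribed across the same bases. The paper describes a strand-specific mRNA service after pre-amplification. The strand setting of the quantification is not given in the sources used here, so reads of mt-Nd6 and of RNA antisense to it cannot be told apart.

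Both ribosomal RNAs were higher in each sgElovl1 library without passing the test. mt-Rnr1 had 109, 80.9 and 64.8 CPM in sgElovl1 libraries and 59.2, 17.7 and 20.4 CPM in sgNT libraries (log2 fold change 1.39, SE 0.58, adjusted p = 0.187 by edgeR's quasi-likelihood test). mt-Rnr2 had 1022, 975 and 839 CPM in sgElovl1 libraries and 470, 154 and 160 CPM in sgNT libraries (1.86, SE 0.53, adjusted p = 0.0879). In both genes sgNT replicate 1 stood apart, at 3.10 times the mean of the other sgNT libraries for mt-Rnr1 and 3.00 times for mt-Rnr2. With the replicate block the adjusted p was 0.00845 for mt-Rnr1 and 0.0107 for mt-Rnr2. As the labels give no such pairing and the block followed a pattern in these same data, these values do not settle the calls.

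The ratio of the large to the small ribosomal RNA separated the groups. mt-Rnr2 had 9.36, 12.1 and 12.9 counts per count of mt-Rnr1 in sgElovl1 libraries and 7.95, 8.67 and 7.84 in sgNT libraries. The lowest sgElovl1 ratio exceeded the highest sgNT ratio by 1.08 times, a narrow gap, and no test was made of it.

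**Figure D4:**
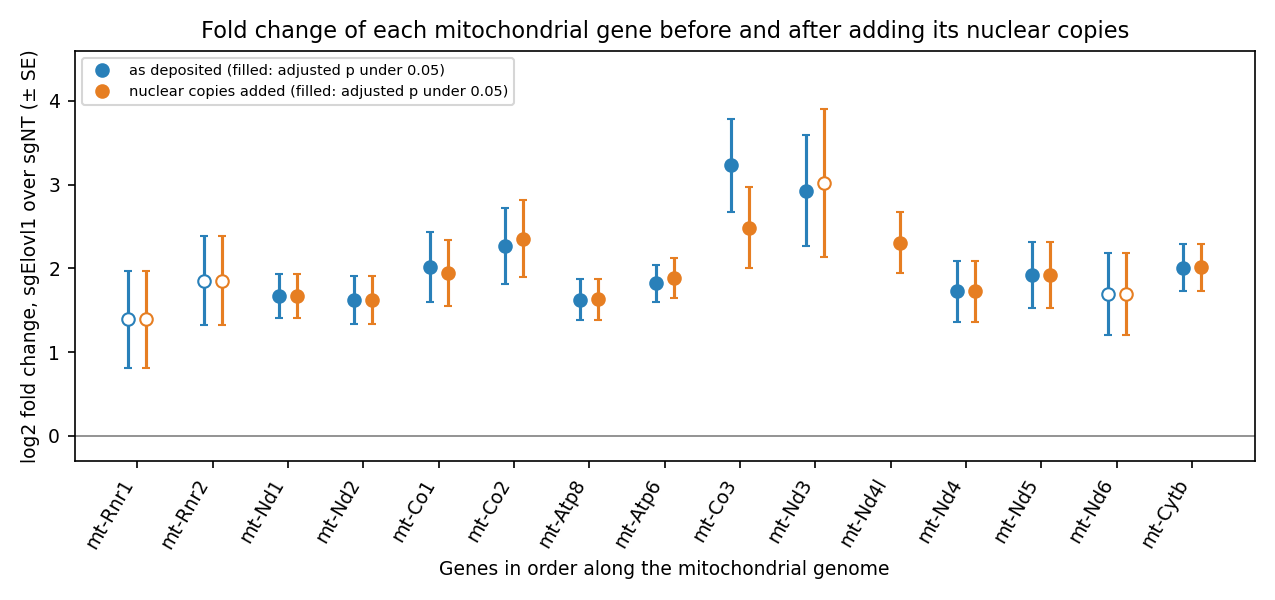
Log2 fold change (sgElovl1 over sgNT) ± SE of each message and ribosomal RNA in genome order, as deposited and with the counts of nuclear copies added. Filled symbols have an adjusted p under 0.05. Adding the copy moved mt-Co3 to 2.49, against 3.23 as deposited, made mt-Nd4l testable at 2.31, and left all values between 1.39 and 3.02.

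By strand, all 11 tested heavy strand messages were called higher as deposited, beside 8.64% of all genes tested. Their median log2 fold change was 1.92, and mt-Nd6 was at 1.69. With copies added, 11 of 12 were called, beside 8.61% of all genes, with a median of 1.935. The heavy strand messages without a counted copy lay between 1.63 for mt-Nd2 and 2.01 for mt-Cytb, a range that holds mt-Nd6. The light strand share of the mitochondrial total was 0.271, 0.235 and 0.219% in sgElovl1 libraries and 0.331, 0.259 and 0.264% in sgNT libraries, with overlap. With the copies added it was 0.184, 0.161 and 0.161% in sgElovl1 libraries and 0.242, 0.197 and 0.199% in sgNT libraries, without overlap. All copies that took counts match heavy strand genes.

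Along the genome, the fold changes showed no steady rise or fall from mt-Rnr1 to mt-Cytb. The 2 highest deposited values belonged to the neighbours mt-Co3 and mt-Nd3, for which the copy held most of the counts in nearly all libraries (41.1% in sgNT replicate 2 was the exception, for mt-Nd3). The 9 members without a counted copy lay between 1.39 and 2.01, with a median of 1.69. The 6 with one had a median of 2.33 once the copies were added, from 1.88 for mt-Atp6 to 3.02 for mt-Nd3.

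By complex, the 3 complex IV messages had a median log2 fold change of 2.27 as deposited, and mt-Cytb of complex III was at 2.01. The 2 complex V messages had a median of 1.73 and the 6 tested complex I messages a median of 1.71. All 3 complex IV messages have a counted nuclear copy. With copies added, complex IV had a median of 2.36, with mt-Co1 at 1.95, below mt-Cytb. The medians were then 1.76 for complex V and 1.73 for the 7 complex I messages. Complex I messages were a smaller part of the message pool in sgElovl1 cells. They made up 15.99, 15.3 and 14.7% of message counts in sgElovl1 libraries and 17.8, 19.9 and 18.2% in sgNT libraries, without overlap. With copies added the values were 10.9, 10.4 and 10.7% in sgElovl1 libraries and 12.8, 14.9 and 13.6% in sgNT libraries. Complex IV messages made up 48.7, 46.6 and 43.8% of the pool in sgElovl1 libraries and 44.0, 36.2 and 41.1% in sgNT libraries, and complex V messages 19.8, 21.9 and 25.1% in sgElovl1 libraries and 23.0, 26.7 and 25.5% in sgNT libraries. Both of these overlapped between the groups.

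Shares of single messages asked whether a gene changed more or less than the rest of the pool. With 3 libraries against 3, the exact permutation test cannot give a two-sided p below 0.1, so no share could pass a threshold of 0.05. mt-Co3 held 4.09, 3.18 and 3.95% of message counts in sgElovl1 libraries and 1.39, 0.885 and 2.58% in sgNT libraries, a difference of 1.34 on the log2 scale (exact permutation p = 0.1). With Gm28437 added it held 28.8, 27.7 and 22.1% in sgElovl1 libraries and 21.2, 18.3 and 19.9% in sgNT libraries, and the difference was 0.40 (exact permutation p = 0.1). The groups did not overlap in either form.

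mt-Nd1, mt-Nd2, mt-Atp8 and mt-Nd4 held lower shares in each sgElovl1 library than in any sgNT library, with log2 differences between -0.39 and -0.25 as deposited. mt-Nd1, for example, held 7.72, 7.90 and 7.70% in sgElovl1 libraries and 9.12, 10.4 and 10.05% in sgNT libraries. With copies added, mt-Nd6 joined these 4. None of these 5 has a counted copy, so adding the copies raised the message total and left their own counts unchanged. The shares of mt-Co1, mt-Co2, mt-Atp6, mt-Nd3, mt-Nd5 and mt-Cytb overlapped between the groups in both forms. mt-Cytb held 15.5, 16.2 and 16.4% in sgElovl1 libraries and 15.3, 17.2 and 15.2% in sgNT libraries as deposited.

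**Figure D5:**
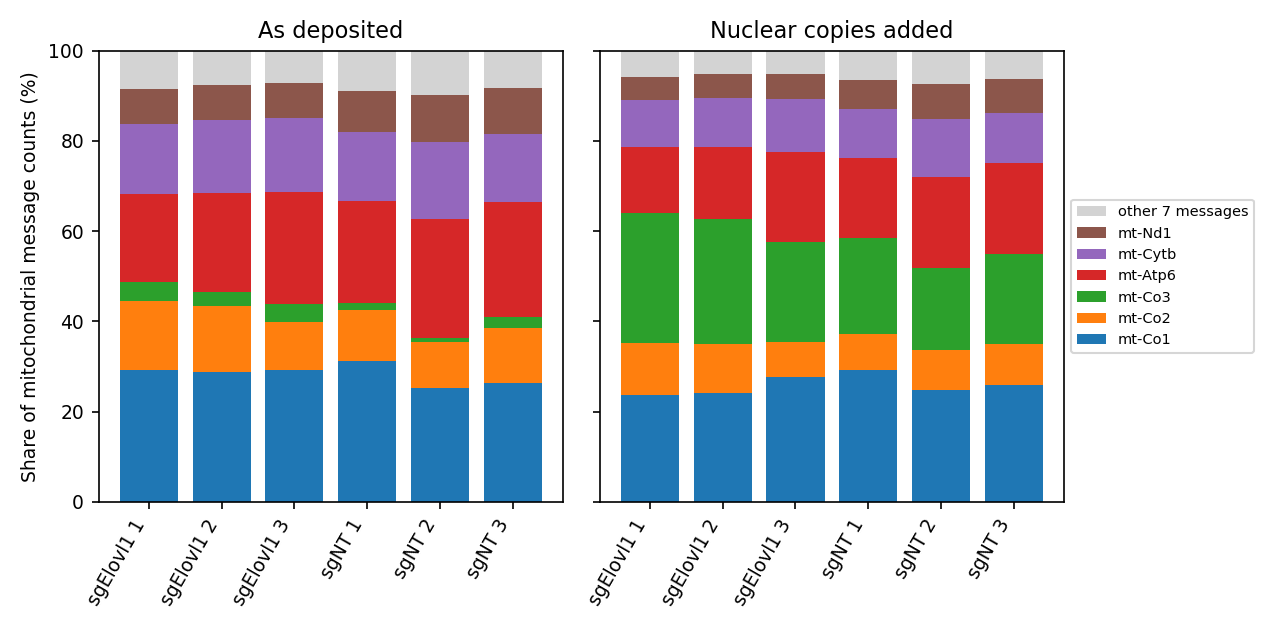
Composition of the mitochondrial message counts (%) in each library, as deposited on the left and with nuclear copies added on the right, for 6 messages and the other 7 together. mt-Co3 is a thin band as deposited (0.885 to 4.09%) and one of the 2 largest bands in the sgElovl1 libraries once its copy is added (22.1 to 28.8%).

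Per kilobase of effective length, the order of the genes was alike in both groups. As deposited, mt-Atp6 ranked first at 6804 ± 518 CPM per kilobase in sgElovl1 libraries and 1888 ± 657 in sgNT libraries (SD, n = 3 each). mt-Co2 came next at 4285 ± 1523 in sgElovl1 libraries and 874 ± 397 in sgNT libraries. In sgElovl1 libraries mt-Atp6 lay above mt-Co2 without overlap, whereas mt-Co2, mt-Co1 (2795 ± 545) and mt-Cytb (2264 ± 386) overlapped with their neighbours.

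With copies added, mt-Co3 had 9718 ± 3342 CPM per kilobase in sgElovl1 libraries and 1711 ± 908 in sgNT libraries. It ranked first in sgElovl1 libraries and second in sgNT libraries, and it overlapped with mt-Atp6 in both. mt-Rnr1, at 129 ± 33.2 CPM per kilobase in sgElovl1 libraries and 48.9 ± 34.9 in sgNT libraries, and mt-Nd6, at 143 ± 39.9 in sgElovl1 libraries and 43.1 ± 26.2 in sgNT libraries, were the lowest of the ranked genes. For the ribosomal RNA this rank holds for these mRNA libraries and need not hold in the cells. mt-Atp8, mt-Nd3 and mt-Nd4l were left out of this order because their effective lengths were at most 72.7 bases.

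The libraries of a group also differed from each other in a way that most members shared. Replicate 1 had the highest, replicate 2 the middle and replicate 3 the lowest level of sgElovl1 libraries for 14 of the 15 messages and ribosomal RNAs, the exception being mt-Nd4l. sgElovl1 replicates 1 and 2 were the pools of RNA from 2 tumours, and no sgNT library was a pool. The part of pooling in this order was not tested. Among sgNT libraries, replicate 1 was the highest for 13 of the 14 genes with a count there, all but mt-Nd3. Its excess over the mean of the other sgNT libraries ranged from 1.58 times for mt-Co3 to 3.10 times for mt-Rnr1 over these 13 genes. Without sgNT replicate 1, 12 members were called, mt-Rnr1, mt-Rnr2 and mt-Nd6 among them, beside 6.07% of all genes tested. The median log2 fold change of the 15 members then tested was 2.33.

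Summed, RNAs that stay in the nucleus were also higher on average in sgElovl1 libraries. The summed level of 8 such RNAs was 1618, 1949 and 2924 CPM without TMM factors in sgElovl1 libraries and 1519, 498 and 725 CPM in sgNT libraries, and Malat1 made up most of it. Without TMM factors, 4 of the 8 were higher without overlap (Neat1, Kcnq1ot1, Tug1 and Malat1), Snhg11 was at 0 and no gene was lower without overlap. The share of 19.4% of all genes tested was counted with TMM factors. With those factors the sum and Malat1 overlapped between the groups, while Neat1, Kcnq1ot1 and Tug1 did not. Like the mitochondrial messages, this sum was highest in replicate 1 among sgNT libraries, but among sgElovl1 libraries it was highest in replicate 3, where the mitochondrial messages were lowest. Its part in the mitochondrial result was not tested.

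Macrophage and monocyte markers were in part higher in sgElovl1 libraries too. Their sum was 1677, 1265 and 1264 CPM in sgElovl1 libraries and 870, 649 and 1305 CPM in sgNT libraries, with overlap, and Ly6c2, which activated T cells also express, held most of it. Without Ly6c2, left out after its values were seen, the other 13 summed to 151, 206 and 417 CPM in sgElovl1 libraries and 99.3, 86.8 and 185 CPM in sgNT libraries, again with overlap. Without TMM factors, 5 of the 14 were higher without overlap (Lyz2, Adgre1, C1qa, C1qc and Apoe), and none was lower without overlap. The share of 19.4% of all genes tested was counted with TMM factors, and with those factors C1qc and Apoe overlapped between the groups. Lyz2, the lysozyme gene of myeloid cells, had 56.5, 81.5 and 159 CPM in sgElovl1 libraries and 1.04, 8.45 and 13.3 CPM in sgNT libraries. The sum without Ly6c2, and Lyz2, were highest in replicate 3 of both groups. With Ly6c2 the sum was highest in replicate 1 of the sgElovl1 libraries and in replicate 3 of the sgNT libraries. Total mitochondrial RNA was highest in replicate 1 of both groups. The part of macrophage RNA in the mitochondrial result was not tested.

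Acinar markers stayed between 16.4 and 24.8 CPM. Of the 10 fibroblast markers, Lum, Pdgfra and Fap were at 0 in every library, and the list summed to between 89.6 and 137 CPM, nearly all of it Thy1, which is also a T cell marker. The other 9 summed to at most 0.537 CPM in any library. Transcript length also moved with the comparison. Tested nuclear genes of 1000 to 2000 bases, copies left out, had a median log2 fold change of -0.17 and those of 4000 to 8000 bases 0.36. With an offset for length in each library 10 of the 14 members were called, beside 5.71% of all genes called higher.

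The nuclear genes that copy, transcribe, process and translate mitochondrial nucleic acids mostly did not pass the test. Of a list of 39, all tested, 1 was called higher and 4 lower, beside 8.64% higher and 5.13% lower over all genes, and the median log2 fold change was -0.12. Polg, the catalytic subunit of the mitochondrial DNA polymerase, was the one called higher, at 26.3, 23.9 and 20.9 CPM in sgElovl1 libraries and 15.02, 18.0 and 15.9 CPM in sgNT libraries (0.54, adjusted p = 0.0321 by edgeR's quasi-likelihood test). Its accessory subunit Polg2 was lower (-0.50, adjusted p = 0.0430). Both calls were kept in 1 of the 6 fits that left out a library, Polg without sgElovl1 replicate 3 and Polg2 without sgNT replicate 3. With the length offset neither was called (Polg 0.40, adjusted p = 0.0860), and the 1 gene called higher was Slirp, a partner of Lrpprc in binding messages (0.52, adjusted p = 0.0490).

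Rexo2, an exonuclease that degrades short RNA in mitochondria, fell the most of the list. It had 141, 145 and 175 CPM in sgElovl1 libraries and 263, 262 and 254 CPM in sgNT libraries (-0.76, adjusted p = 0.00335 by edgeR's quasi-likelihood test). Mterf4, which takes part in assembly of the mitochondrial ribosome, was at -0.60 (adjusted p = 0.0157) and Tsfm, a mitochondrial translation elongation factor, at -0.44 (adjusted p = 0.0248). Groups did not overlap for any of these. Rexo2 was called in each of the 6 fits that left out a library and with the length offset, whereas Mterf4 was called in 2 of the 6, Tsfm in 1 of the 6, and neither with the offset.

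The core transcription and stability factors did not pass the test. Polrmt, the mitochondrial RNA polymerase, had 16.7, 18.3 and 13.9 CPM in sgElovl1 libraries and 15.5, 18.1 and 9.92 CPM in sgNT libraries (0.17, adjusted p = 0.626 by edgeR's quasi-likelihood test). Tfam, which packages mitochondrial DNA and starts its transcription, was at -0.21 (adjusted p = 0.207), and Lrpprc, which stabilises mitochondrial messages, at -0.06 (adjusted p = 0.819). Over the whole nuclear list, 0 to 1 gene was called higher and 1 to 5 lower when 1 library was left out. Over all genes tested, 279 to 1414 were called higher and 42 to 1304 lower in these fits. With replicate 3 of both groups left out, 10 of the list were lower, beside 2039 of all 12656 genes tested.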

How the data were processed

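Per the submitters' processing notes, the authors mapped reads of SMARTer complementary DNA to mm10 with STAR 2.7.7a, quantified genes with RSEM 1.3.1 and tested with DESeq2 1.36.0. The deposited expected counts are estimated read pairs per gene and are not scaled between libraries. The deposited TPM values, transcript shares scaled for length, served 1 alternative. The deposited effective lengths, in bases, served levels per kilobase. The annotation release is not given in the sources used here, and coordinates are those of GENCODE M21, which matched 55230 of the 55471 gene IDs.

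Expected counts were rounded and fitted for all genes with edgeR 4.0.16 in R 4.3.3: filterByExpr (minimum count 10), TMM factors, robust quasi-likelihood fits on group alone, and a two-sided test. Benjamini-Hochberg adjustment ran over 12546 genes, calls were made at an adjusted p under 0.05, and the SE is the log2 fold change divided by the square root of F. The steps were tested on simulated data. Nuclear copies were nuclear genes with at least 100 bases aligned to a mitochondrial gene by blastn 2.17.0 at 95% identity or more over at least 0.5 of their exon length. Their counts were added to the gene they matched best and the fit was repeated. Shares were compared by exact permutation tests in SciPy 1.17.1, unadjusted.

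The members and gene lists were chosen with earlier results of these data known. All messages and ribosomal RNAs were named, as were nuclear copies with most counts, called genes of the nuclear list, Polrmt, Tfam and Lrpprc. Same-numbered libraries deviated together from their group means (correlations 0.212, 0.245 and 0.405 for numbers 1 to 3), so the replicate block was fitted as an alternative. The labels give no pairing, and sgElovl1 replicate 1 also had a correlation of 0.169 with sgNT replicate 2. Others were DESeq2 1.42.0, limma-voom 3.58.1, other scaling, no filter, a length offset (loess span 0.3) and libraries left out. Cells of each mouse were treated as 1 biological replicate by the labels, apart from the pooled RNA of sgElovl1 replicates 1 and 2, and p-values measure the spread between these libraries.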

Additional observations from a re-analysis of the deposited data

How the results depend on the processing

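All 14 members tested as deposited kept a positive log2 fold change under every alternative, while the number called did not stay the same. As deposited, 11 were called. With the replicate number as a block, a pairing that the labels do not give, 14 were called. All 15 were called with this block and the nuclear copies added as well. DESeq2 and limma-voom called 13 each, and the length offset 10, beside 11.1, 8.57 and 5.71% of all genes called higher. Without the filter on low counts 6 of 15 were called, beside 5.81% of all genes called higher. Leaving out 1 library gave 3 to 12 called members as deposited and 3 to 14 with the copies added (7 without sgNT replicate 3), combinations chosen after seeing the data. Over all genes tested, 2.15 to 11% were called higher in these fits. Without the third library of both groups 3 were called, both as deposited and with the copies added, beside 15.4% of all genes in each form. Only mt-Atp6 and mt-Atp8 were called in each fit that left out 1 library as deposited, joined by mt-Nd4l with the copies added. Among the nuclear genes for mitochondrial DNA and RNA, the length offset left 1 called lower and 1 called higher, Slirp in place of Polg. Over all 12546 genes it left 437 lower and 716 higher. Leaving out 1 library gave 0 to 1 higher and 1 to 5 lower in the list, beside 42 to 1304 lower over all genes. Leaving out the third library of both groups gave 10 lower, beside 2039 of all 12656 genes tested. The block changed no call of that list's counts (1 higher and 4 lower). The log2 share difference of mt-Co1 was 0.09 as deposited and -0.08 with its copy added, and that of mt-Cytb was 0.02 and -0.08, so neither direction is settled. Apart from the copies, the cause of these shifts was not tested. With 3 libraries a group, shares cannot reach an exact p below 0.1.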
